A study of Homo sapiens with 12 samples.

Results

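The genes described here are 9 transcription factors of the developing pancreas, foregut and endocrine lineage: NEUROG3, INSM1, SOX4, SOX9, SOX11, ONECUT2, HNF4A, FOXA2 and GATA6. They were chosen by symbol, each matched 1 row, and they are 9 of the 35337 genes in the expression table. In 12 libraries of EndoC-βH3 cells, INSM1 fell upon senescence by about the same amount in both batches, and ONECUT2 responded differently in the 2 batches. Over both batches together FOXA2 was slightly lower and HNF4A slightly higher in senescent cells, each with a batch A 95% interval that includes 0. SOX4 and SOX11 passed neither limit of the test. NEUROG3, SOX9 and GATA6 gave too few reads to compare.

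EndoC-βH3 is a human beta-like line made from fetal pancreas, kept in division by hTERT and SV40 large T antigen transgenes that a tamoxifen-activated CreER recombinase can cut out. The 6 senescent samples came from cells treated for 3 weeks with 4-hydroxy tamoxifen, and the 6 non-senescent controls were untreated. All 12 samples share 1 line labelled as WT, and the controls still carry the transgenes, so the drug, the loss of these genes and senescence cannot be told apart. Each group held 2 samples of batch A and 4 of batch B, the letters in the sample titles. Nothing in the labels ties a sample to a separate culture, so p-values measure only the spread between these samples, which may be technical.

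Endocrine cells of the pancreas arise from foregut-derived progenitors that switch on NEUROG3 for a short time, after which INSM1 and other factors carry the cells towards a hormone-producing fate. FOXA2 and GATA6 act early, opening chromatin in foregut endoderm, while SOX9 and ONECUT factors mark the bipotent progenitors and ducts. HNF4A, a nuclear receptor of liver, gut and islet cells, has a beta-cell role known from inherited diabetes, and SOX4 and SOX11 are closely related SOX factors, of which SOX4 takes part in endocrine differentiation.

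Poly(A) RNA was read at its 3′ end by CEL-seq2. Values are normalised read counts, the read number of a gene divided by 1 size factor per library, and they do not compare levels between genes. Batch A libraries held 8873569 to 17106776 reads and batch B libraries 4672924 to 7063264 reads, so low genes carried less counting error in batch A, with fewer replicates. Libraries split first by batch (57.6% of the variance) and then by group (19.3%), and none stood apart from its batch and group. All 14 beta cell markers passed the filter, INS, IAPP, PDX1, MAFA and G6PC2 rose and PCSK1 and SCGN fell. Markers of other islet cells were read too, with summed normalised counts of 380503 to 412639 in non-senescent and 331993 to 365230 in senescent libraries of batch A, and 212752 to 241306 and 287835 to 333756 in batch B, most of it SST and TTR. Of these 13 markers GCG, SST, HHEX and LEPR fell and TTR, LOXL4 and RBP4 rose. The response differed between batches for 6 of the 11 tested (limma interaction adjusted p below 0.1), against 4.21% of all tested genes. They were GCG (-2.36 in batch A, -0.77 in batch B), SST (-1.24 and -0.35), TTR (0.99 and 1.88), LOXL4 (1.69 and 2.57) and RBP4 (0.18 and 0.81). The last was IRX2 (0.38 and -0.87), which was not called. The 4 falls became 2 without non-senescent A2 or senescent A1, where LEPR had adjusted p values of 0.107 and 0.102 and SST lay at -0.58 and -0.56, under the fold limit. SST was also under it without non-senescent A1 (-0.56) or senescent A2 (-0.58), LEPR had -0.36 in batch B alone (adjusted p = 0.465), and RBP4 was under it without non-senescent B2 or B3 or senescent B2 or B3 (0.52 to 0.58). Of 16 duct markers 6 were tested, and their summed counts were 3602 to 3886 in non-senescent and 3436 to 3465 in senescent libraries of batch A, and 2354 to 2475 and 2110 to 3971 in batch B. Among them PROM1 (log2 fold change -4.51) and KRT19 (-1.35) fell, ANXA4 (0.74) and S100A6 (0.71) rose, S100A6 losing its call without senescent B1 or B2 (0.54 and 0.49), and KRT8 and KRT18 did not pass, while CFTR, MUC1 and SPP1 had at most 12 reads each over all libraries. Of 14 acinar markers 3 were tested, with sums of 1237 to 1335 and 1364 to 1653 in batch A and of 805 to 945 and 1483 to 2323 in batch B. CPA1 (2.25) and SPINK1 (0.66) rose and CPB1 (-2.04) fell, and CTRB2 and REG1B had 0 reads. SPINK1 was under the fold limit without senescent B1 (0.53). Its response differed between batches (limma interaction adjusted p = 0.0856), at 0.13 in batch A, where its groups overlapped, and 0.92 in batch B. The mesenchymal, endothelial and immune markers summed to 188.5 at most. The part of such cells in the results on the 9 factors was not tested, and fewer cells of a type cannot be told from less RNA per cell in such bulk samples.

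A gene was tested where its mean normalised read count was at least 5, which 13847 genes and 6 of the 9 factors reached. The test was a limma fit of log2(value + 1) with batch and group, and a call needed more than a 1.5-fold change at an adjusted p (Benjamini-Hochberg, over all tested genes) below 0.1. Of the 6 factors 1 was called lower in senescent cells, INSM1, and 0 were called higher. Among all tested genes 23.4% were called, 11.8% lower and 11.6% higher. Scaling every library to the same total shifted the median log2 fold change of all genes from 0.012 to -0.091 and the calls from 1605 higher and 1632 lower to 1226 and 2090, with INSM1 still the called factor. At an adjusted p under 0.1 with any fold, 4 of the 6 factors (INSM1, FOXA2, ONECUT2 and HNF4A) passed, against 45.5% of all tested genes. The median log2 fold change of the 6 factors was 0.15.

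**Figure D1:**
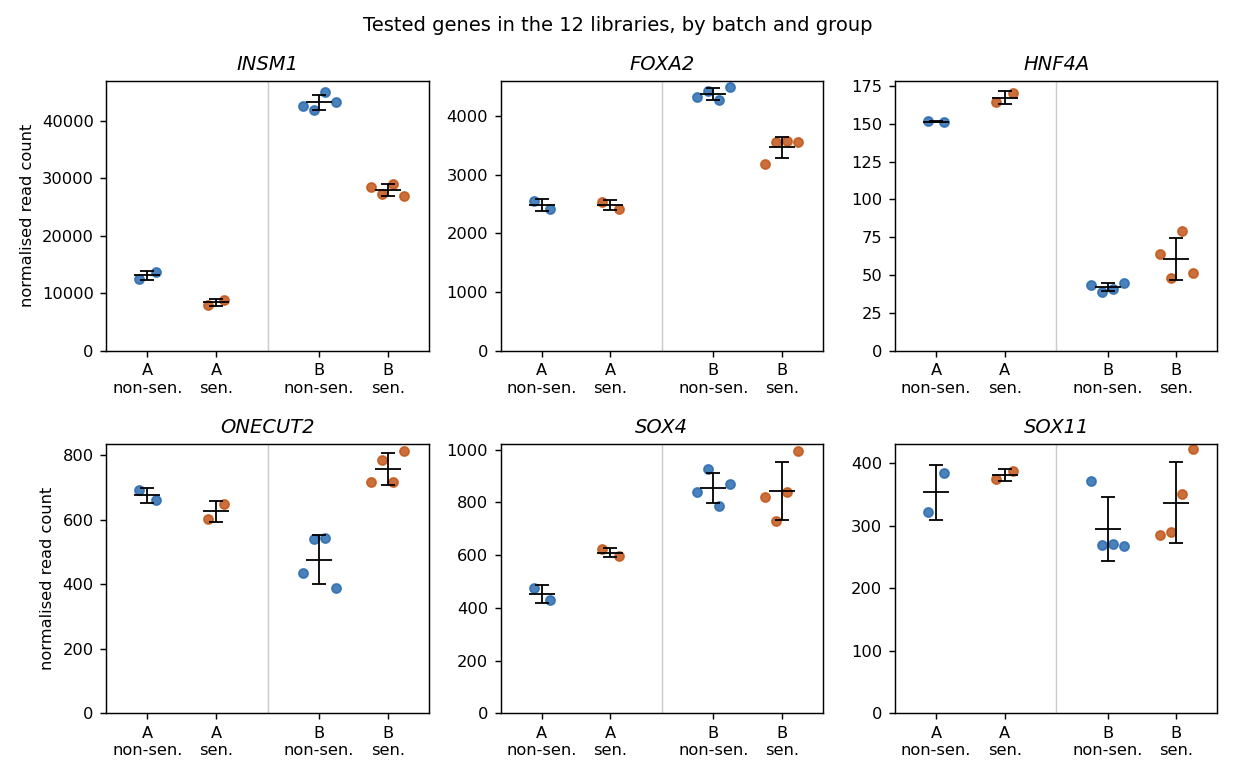
Normalised read count of the 6 tested factors (vertical axis, from 0) in each library, by batch and group. Points are libraries (blue non-senescent, orange senescent), long bars are means and error bars 1 SD (n = 2 in batch A, n = 4 in batch B). INSM1 is lower in senescent cells in both batches and ONECUT2 changes in opposite directions.

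INSM1, a zinc-finger repressor that follows NEUROG3 in endocrine cells, was the factor with the clearest fall. The gene lies in 1 stretch without other annotated genes at chr20:20368104-20370949 on the plus strand (GRCh38, GENCODE v44). In batch A the non-senescent libraries gave 12516 and 13676 normalised reads and the senescent ones 8040 and 8879. In batch B the non-senescent libraries gave 42571, 41887, 45070 and 43308, and the senescent ones 28560, 27217, 29007 and 26927. Every senescent library lay below every non-senescent library of its batch, with replicates of a group and batch within 1.10-fold of each other. On the log2 scale the change was -0.63 (SE 0.056, 95% interval -0.75 to -0.51, limma adjusted p = 1.1e-07), a level of 0.646 of the controls. Within batch A alone it was -0.63 (interval -0.85 to -0.41) and within batch B alone -0.63 (interval -0.79 to -0.47). The difference between the responses was 0.0011 (SE 0.10, adjusted p = 0.997), so the fall was about the same in libraries whose INSM1 level differed by 3.30-fold between the batches. Leaving out any 1 library kept the call, with values from -0.65 to -0.61.

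FOXA2, a pioneer factor of foregut endoderm that beta cells keep, was slightly lower in senescent cells and did not reach the fold limit. It lies at chr20:22580998-22585455 on the minus strand, with no annotated gene overlapping it. In batch A the non-senescent libraries gave 2555 and 2415 normalised reads and the senescent ones 2540 and 2419, so the groups overlapped. That overlap depended on the scaling. As ppm of a library's reads the batch A controls had 359 and 342 and the senescent libraries 331 and 307, all lower. In batch B the non-senescent libraries gave 4328, 4418, 4270 and 4490 and the senescent ones 3190, 3553, 3569 and 3551. Over both batches FOXA2 had a response of -0.23 on the log2 scale (SE 0.067), with an adjusted p of 0.0122. Batch A alone gave -0.0030 (interval -0.17 to 0.16) and batch B alone -0.34 (interval -0.46 to -0.21). The difference between the batches was -0.33 with an adjusted p of 0.112 in limma, and it passed with edgeR (adjusted p = 0.0745) and DESeq2 (adjusted p = 0.0223) on the recovered reads. It also passed without the non-senescent library B3 (adjusted p = 0.0978) and with TMM scaling (adjusted p = 0.0682), upper quartile scaling, the filter at 20 and array weights. Its adjusted p over all alternatives run ranged from 0.0223 to 0.419.

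ONECUT2, a factor of the bipotent progenitor that is also found in endocrine cells, was the 1 tested factor whose response differed between the batches. It lies at chr18:57435374-57491298 on the plus strand. In batch A the non-senescent libraries gave 693 and 660 normalised reads and the senescent ones 603 and 650, slightly lower with only 2 libraries per group. In batch B the non-senescent libraries gave 435, 540, 542 and 390 and the senescent ones 716, 786, 718 and 815. The senescent libraries of batch B were the 4 with the highest ONECUT2 counts of all 12. Within batch A ONECUT2 responded by -0.11 on the log2 scale (interval -0.30 to 0.075) and within batch B by 0.68 (interval 0.42 to 0.94, adjusted p = 0.0022), where it also passed the fold limit. Their difference was 0.79 (SE 0.18, limma adjusted p = 0.0323), in a test that 4.21% of all tested genes passed. It passed with edgeR and DESeq2, and was lost in limma without the intensity trend (adjusted p = 0.131) or without any 1 library of batch A: the adjusted p was 0.143 without non-senescent A1, 0.133 without non-senescent A2, 0.194 without senescent A1 and 0.122 without senescent A2. Both batches together gave 0.42 (SE 0.13) at an adjusted p of 0.0143, under the fold limit.

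HNF4A was higher in every senescent library than in every non-senescent library of its batch, by an amount under the fold limit. In batch A the non-senescent libraries gave 152 and 151 normalised reads and the senescent ones 164 and 170. In batch B the non-senescent libraries gave 43.7, 38.5, 40.9 and 44.7 and the senescent ones 64.2, 48.3, 79.0 and 51.1. The batch A difference depended on the scaling, since as ppm of a library's reads the controls had 21.3 and 21.4 and the senescent libraries 21.4 and 21.6, and there the groups overlapped. Over both batches the response was 0.38 on the log2 scale (SE 0.15), at a limma adjusted p of 0.0514, and it was 0.14 in batch A (interval -0.10 to 0.39) and 0.50 in batch B (interval 0.032 to 0.96). The adjusted p became 0.127 without the senescent library B3 and 0.157 with libraries scaled to the same total. HNF4A and INSM1 were the 2 tested factors that kept the groups apart, in 1 direction, in both batches, as did 23.8% of all tested genes.

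HNF4A spans chr20:44355699-44432845 on the plus strand and has 2 promoters far apart, an upstream one used in pancreas and a downstream one used in liver. Reads from the 3′ end count transcripts of both together. The sequences are shown because ONECUT and HNF1 factors are known regulators of HNF4A. The log2 fold changes of HNF4A and ONECUT2 were 0.50 and 0.68 in batch B. In batch A they were 0.14 and -0.11, both with intervals that include 0. A link between the levels of these genes was not tested. RefSeq promoters (GRCh38.p14, 250 bases before to 50 after the start) were at hand for 5 of the 9 factors, SOX4, NEUROG3, GATA6, ONECUT2 and HNF4A. INSM1, SOX9, SOX11 and FOXA2 are named only. In both sequences capitals mark the ONECUT core ATCAAT and the HNF1 half-site GTTAAT on either strand (ATTGAT and ATTAAC when read along the printed strand).
HNF4A upstream promoter, chr20:44355449-44355748, plus strand: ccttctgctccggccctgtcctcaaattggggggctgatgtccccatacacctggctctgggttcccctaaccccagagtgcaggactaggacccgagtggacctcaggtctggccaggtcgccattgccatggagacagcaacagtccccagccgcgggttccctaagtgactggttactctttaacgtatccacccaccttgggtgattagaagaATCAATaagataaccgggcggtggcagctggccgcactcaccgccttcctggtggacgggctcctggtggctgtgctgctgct
HNF4A downstream promoter, chr20:44400989-44401288, plus strand: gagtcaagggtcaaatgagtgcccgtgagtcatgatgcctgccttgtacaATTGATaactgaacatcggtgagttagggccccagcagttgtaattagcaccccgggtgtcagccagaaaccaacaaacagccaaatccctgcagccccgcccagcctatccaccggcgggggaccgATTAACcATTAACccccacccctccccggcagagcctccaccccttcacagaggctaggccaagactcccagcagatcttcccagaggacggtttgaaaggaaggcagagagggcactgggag

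With the annotated start as position 0, the upstream promoter held 1 ONECUT core, at -33, and the downstream one held 1, at -200. The HNF1 half-site was found 2 times in the downstream window, at -73 and -66, and not as these letters in the upstream one. Neither motif overlapped the other. Of 35116 promoters of this length 6.26% held the ONECUT core and 6.88% the HNF1 half-site. The ONECUT2, SOX4, NEUROG3 and GATA6 windows held neither. The E-box CANNTG, which reads the same on both strands and is bound by bHLH factors such as NEUROG3, occurred in all 6 windows and in 68.7% of all promoters. A match of letters is a description and not a site.

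SOX4 and SOX11 passed neither limit. SOX4, which lies at chr6:21593751-21598619 on the plus strand, gave 477 and 428 normalised reads in the batch A controls and 622 and 598 in their senescent counterparts. In batch B the non-senescent libraries gave 840, 925, 786 and 870 and the senescent ones 820, 728, 838 and 994. The senescent libraries were higher in batch A, with only 2 libraries per group, and overlapped the controls in batch B. The log2 fold change over both batches was 0.13 (interval -0.072 to 0.33, adjusted p = 0.311), with 0.43 in batch A (interval 0.22 to 0.64) and -0.024 in batch B (interval -0.24 to 0.20). The difference between the batches was -0.45 (adjusted p = 0.181), and it passed with array weights (-0.48, adjusted p = 0.0416), with DESeq2 (adjusted p = 0.0942) and without the senescent library B4 (adjusted p = 0.0693). SOX11 lies at chr2:5692384-5701385 on the plus strand, where the annotation has a non-coding gene on the same strand over its 3′ end, and how reads were shared between them is not given in the sources used here. Non-senescent libraries ranged from 267 to 385 normalised reads (median 296) and senescent ones from 285 to 422 (median 363), which overlapped in both batches. Its log2 fold change was 0.16 (interval -0.077 to 0.40, adjusted p = 0.277), so neither a fall of more than 0.077 nor a rise of more than 0.40 lay inside the interval.

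**Figure D2:**
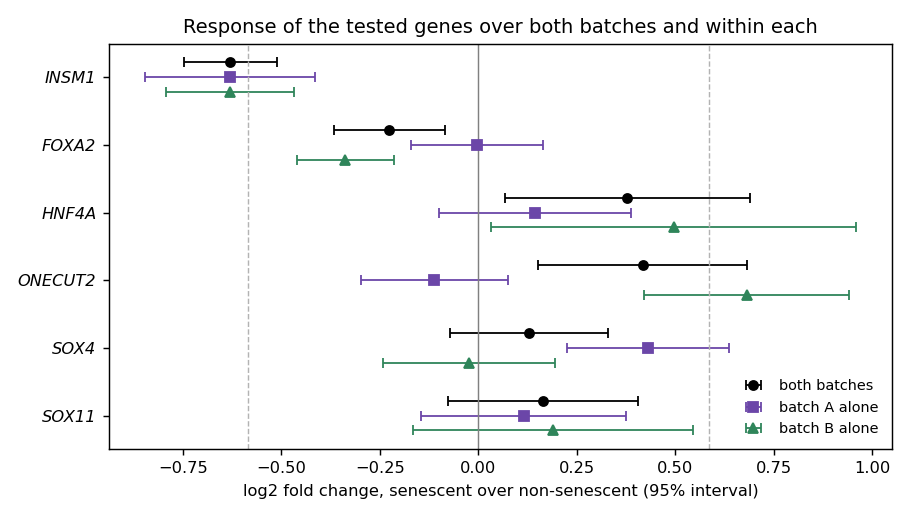
Log2 fold change of the 6 tested factors, senescent over non-senescent (horizontal axis), with 95% intervals over both batches (black circles), in batch A alone (purple squares) and in batch B alone (green triangles). Dashed lines mark a fold of 1.5. The 3 INSM1 values coincide at -0.63, while ONECUT2 is -0.11 in batch A and 0.68 in batch B.

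NEUROG3, the factor that starts endocrine differentiation, was read in batch A only. It lies at chr10:69571698-69573422 on the minus strand. The non-senescent libraries A1 and A2 gave 12 reads and 1 read and the senescent ones 12 reads each. All 8 libraries of batch B gave 0 reads, each of which allows up to 3 reads, or between 0.425 and 0.642 ppm of that library. Batch A held 37 reads in 51832478, and that rate would give 32.8 reads in the 45941597 reads of batch B. The limit that 0 reads allow lies under the 0.701 to 0.938 ppm of 3 of the batch A libraries. In normalised reads the batch A values were 6.67 and 0.795 in controls and 5.39 and 7.25 in senescent cells, so the groups overlapped and their order rests on the 1 read of non-senescent A2. Without the filter the limma adjusted p for senescence was 0.557.

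SOX9, the factor of the progenitor and of duct cells, gave 33 reads over all 12 libraries. It lies at chr17:72121020-72126416 on the plus strand, inside the antisense gene SOX9-AS1. The highest library held 5 reads, and 18 reads came from non-senescent and 15 from senescent cells. In normalised reads it ranged from 0 to 5.84 in non-senescent and from 0 to 3.43 in senescent libraries. GATA6, an endoderm factor needed for pancreas formation, gave 12 reads and at most 3 in a library, 4 in non-senescent and 8 in senescent cells. It lies at chr18:22169589-22202528 on the plus strand, with GATA6-AS1 over its 5′ end. No library exceeded the 3 reads that a count of 0 allows for GATA6, so no fold is given, and its adjusted p without the filter was 0.451 and that of SOX9 0.562. A senescence difference in these 3 genes was not detectable at this depth.

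**Figure D3:**
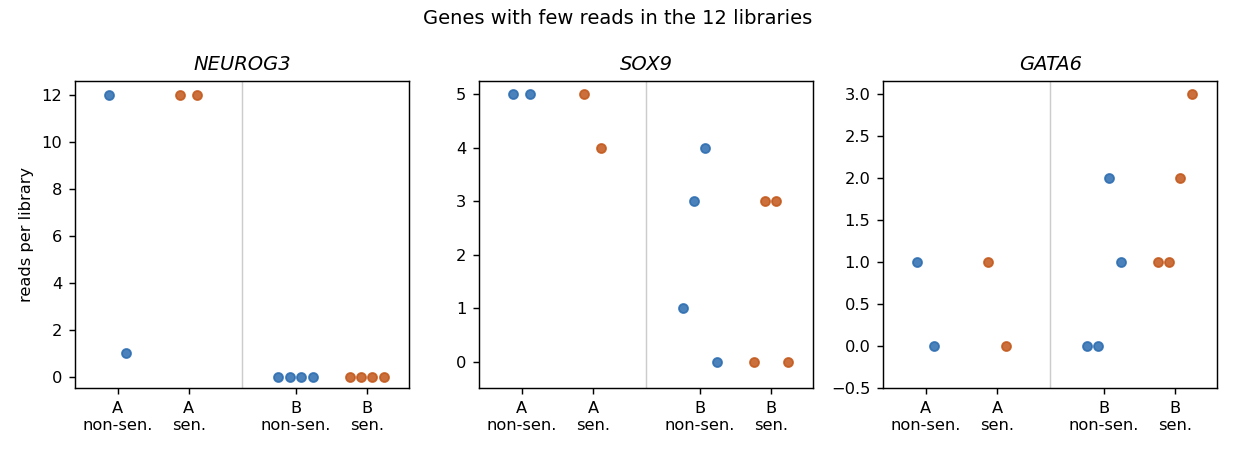
Reads per library (vertical axis) of NEUROG3, SOX9 and GATA6 by batch and group (blue non-senescent, orange senescent). NEUROG3 has 12, 1, 12 and 12 reads in batch A and 0 in the 8 libraries of batch B, while SOX9 has at most 5 and GATA6 at most 3.

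The level of most tested factors differed more between the batches than between the groups. The same limits called 4 of the 6 between the batches, against 53.1% of all tested genes. INSM1 was higher in batch B by 1.72 on the log2 scale (SE 0.059, limma adjusted p = 1.33e-13), SOX4 by 0.69 (SE 0.10) and FOXA2 by 0.65 (SE 0.071). HNF4A was lower in batch B, with a difference of -1.65 (SE 0.16), and its mean normalised read count was 159 in batch A against 51.3 in batch B. The libraries of the batches did not overlap for these 4 factors, as for 39.3% of all tested genes. ONECUT2 (-0.12, SE 0.13) and SOX11 (-0.23, SE 0.12) passed neither limit. A batch is known here only as a letter, so what differed between A and B cannot be told.

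**Figure D4:**
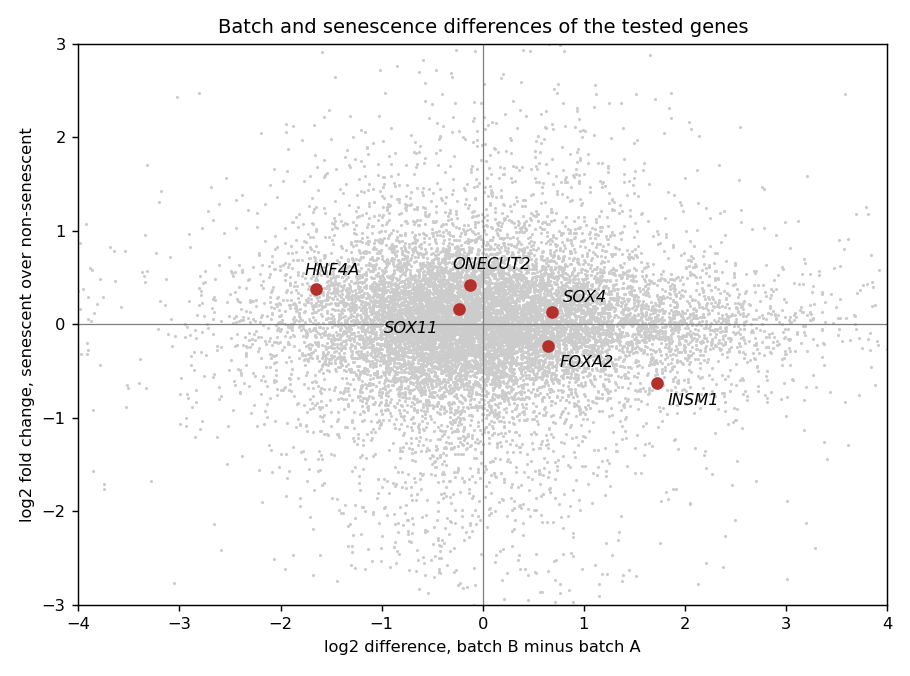
Log2 difference between batch B and batch A (horizontal axis) and log2 fold change in senescence (vertical axis) of all tested genes (grey, 262 of them outside the axes) and of the 6 factors (red). INSM1 and HNF4A stand far apart by batch, at 1.72 and -1.65, and at -0.63 and 0.38 by senescence.

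Of 23 listed paralogs of these factors, 11 passed the filter and 6 gave 0 reads in all libraries, among them SOX10, SOX17, NEUROG2 and GATA5. GATA4, the close relative of GATA6, gave 890 ± 152 normalised reads in controls against 999.7 ± 166 in senescent cells (SD, n = 6 each), a log2 difference of 0.17 (SE 0.083) that did not pass (limma adjusted p = 0.121). FOXA1 gave 5 reads in non-senescent and 0 in senescent cells, and ONECUT1 gave 0 and 2. Of the 11 paralogs tested, SOX6 rose and SOX2 and INSM2 fell. SOX2, a pluripotency and foregut factor, fell by 2.60 on the log2 scale (SE 0.38), from means of 35.6 to 3.91 in batch A and from 168 to 38.3 in batch B. SOX6 rose by 1.56 (SE 0.16), from 47.5 to 97.6 in batch A and from 103 to 367 in batch B. INSM2 fell by 1.35 (SE 0.48), from 17.0 to 5.19 in batch A and from 4.17 to 1.46 in batch B, a low gene whose batch B groups overlapped. FOXA3 (0.88, adjusted p = 0.121) did not pass, but it did with a replicate block (adjusted p = 0.0830), which made 2 paralogs higher, with array weights (adjusted p = 0.0953) and without the non-senescent library B3 (log2 fold change 1.10) or B4 (1.05). The median log2 fold change of the 11 was 0.17, against 0.012 over all tested genes.

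Factors that follow NEUROG3 in the islet lineage were nearly all read, 22 of 23 past the filter. In senescent cells 5 rose, 2 fell and 15 did not pass both limits, with a median log2 fold change of -0.034. The response differed between batches for 3 of the 22 (limma interaction adjusted p below 0.1, as for 4.21% of all tested genes). These were NKX6-1 (0.11 in batch A, -0.61 in batch B, interaction adjusted p = 0.0174), IRX1 (0.35 and -0.81, 0.0055) and IRX2 (0.38 and -0.87, 0.00010), all among the 15. MAFA, a factor of mature beta cells, rose by 2.36 (SE 0.25), PAX4, a beta-lineage repressor, by 1.57 (SE 0.26) and GLIS3, a regulator of INS, by 0.90 (SE 0.21). The change of GLIS3 was 0.18 in batch A alone, where its groups overlapped (adjusted p = 0.576), and 1.26 in batch B alone. MYT1, a zinc-finger factor of endocrine progenitors, rose by 0.60 (SE 0.14) and PDX1 by 0.59 (SE 0.068). The last 2 lay beside the fold limit of 0.58. MYT1 was under it without non-senescent B1 or senescent A1, B1, B2 or B4 (0.53 to 0.58), and PDX1 without non-senescent A1, A2, B2 or B4 or senescent A1, A2 or B4 (0.56 to 0.58), which left 3 of the 5 rises without senescent A1 or B4. FEV, a serotonergic factor found in endocrine precursors, fell by 0.93 (SE 0.28), and its change of -0.17 in batch A alone did not pass. HHEX, a delta-cell and foregut factor, fell by 0.74 (SE 0.13). NEUROD1, a direct target of NEUROG3, had -0.22 on the log2 scale (SE 0.060), under the fold limit at an adjusted p of 0.0077.

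Of 25 other progenitor and foregut factors listed, 12 passed the filter and 4 gave 0 reads in all libraries, and PTF1A, FOXF1, HOXB1, BHLHA15 and RBPJL had 0 reads in non-senescent cells. Of the 12 tested, 3 rose and 3 fell, with a median of 0.13. CDX2, the factor of hindgut and intestine, rose by 1.21 (SE 0.26), HES1, a Notch target that represses NEUROG3, by 1.01 (SE 0.33) and MEIS2, a homeobox cofactor, by 1.00 (SE 0.084). The HES1 change was -0.15 in batch A alone and 1.59 in batch B alone, a difference that did not pass (limma interaction adjusted p = 0.149). The response did differ between batches for CDX2 (2.28 in batch A, 0.68 in batch B, interaction adjusted p = 0.0549). It also differed for PROX1, which was not called (-0.51 and 0.88, 0.0511). SIX2 fell by 2.61 (SE 0.33) and SIX3 by 0.63 (SE 0.19), both homeobox factors of maturing human beta cells, and LIN28B, an RNA-binding protein of fetal cells, fell by 0.83 (SE 0.23). LIN28B did not pass in batch B alone (-0.59, adjusted p = 0.180). SIX3 did not pass in batch A alone (-0.39) and was under the fold limit without non-senescent B2 (-0.56) or B3 (-0.52) or senescent B1 (-0.56).

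INSM1 recruits a corepressor of KDM1A, RCOR proteins and histone deacetylases. Of 11 listed partners 10 were tested, 2 were called higher and 0 lower, with a median of 0.23. GSE1 rose by 0.71 (SE 0.089) and RCOR1 by 0.67 (SE 0.17), the latter under the fold limit without non-senescent B4 (0.50), and the change of GSE1 was 0.46 in batch A alone, under it too. HDAC2, a histone deacetylase, had -0.25 (SE 0.062, adjusted p = 0.0042), the 1 partner below 0 at an adjusted p under 0.1 with any fold. Its groups did not overlap in either batch, as for 23.8% of all tested genes.

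Described targets of HNF4A and FOXA2 are largely genes of liver and gut that carry lipids and of nutrient metabolism. They showed 8 rises and 0 falls among 19 tested of 26 listed, with a median of 0.41. Among all tested genes 11.6% were called higher and 11.8% lower. The rises numbered 6 to 8 with 1 library left out. CLDN1, a tight junction protein, had 0.68 (adjusted p = 0.0671), was -0.18 in batch A alone and lost its call without non-senescent B1, B2 or B4 or senescent B1, B2 or B3 (0.51 to 0.67). SERPINA1, a liver protease inhibitor, had 0.60 and was under the fold limit in batch A alone (0.25) and without non-senescent B1, B2 or B3 or senescent B3 or B4 (0.53 to 0.58). The largest were FABP1, a fatty acid carrier, at 2.88 (SE 0.51), APOB, the core protein of lipoproteins, at 2.22 (SE 0.26), FOXO6 at 2.11 (SE 0.22) and TTR, the thyroxine carrier, at 1.59 (SE 0.13). FABP1 was low, with means of 1.79 to 6.92 in batch A and 4.61 to 47.6 in batch B. HADH, an enzyme of fatty acid oxidation, rose by 0.87 (SE 0.077). The apolipoprotein gene APOA1 fell without the non-senescent library B1 (-1.17), edgeR on the recovered reads called APOA1 (-1.14) and APOA2 (-1.49) lower, and batch A alone called APOA1, APOA2, APOC3 and APOM lower (-1.89 to -0.63). The response differed between batches for 2 of the 19 (limma interaction adjusted p below 0.1, as for 4.21% of all tested genes). These were TTR (0.99 in batch A, 1.88 in batch B, interaction adjusted p = 0.0042) and APOC3 (-0.63 and 0.70, 0.0017). TTR is in the list of other islet cells too, and the targets are known from other tissues.

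**Figure D5:**
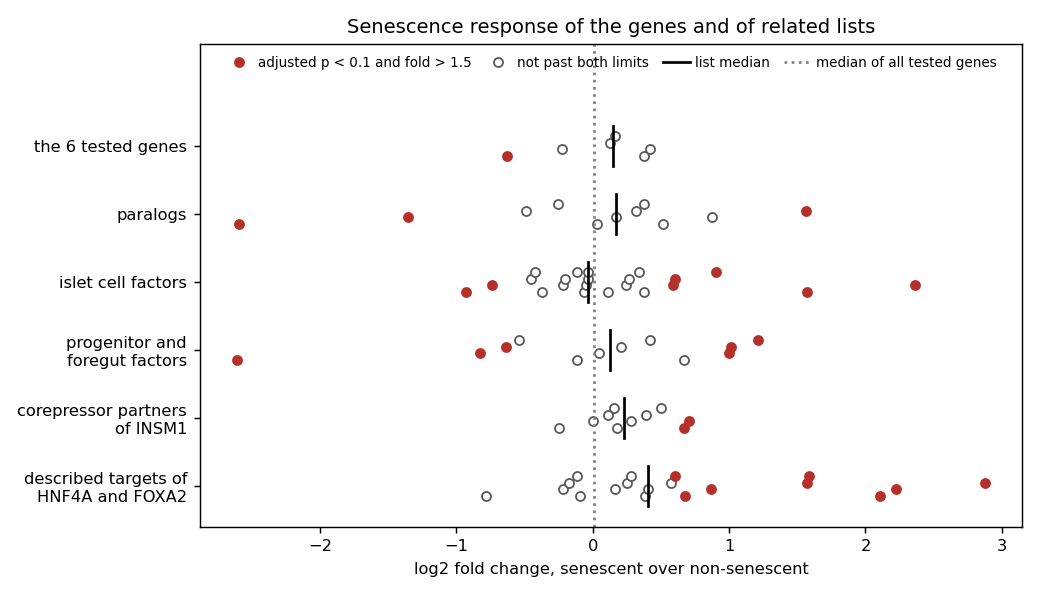
Log2 fold change, senescent over non-senescent (horizontal axis), of the 6 tested factors and of the tested genes of 5 related lists. Red points are called genes, open points were not called, black bars are list medians and the dotted line is the median of all tested genes (0.012). Of 19 tested HNF4A and FOXA2 targets 8 are red, all above 0, and of all tested genes 11.6% were called higher.

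The genes most like each factor were taken by Pearson's r of log2 values centred within batch over the 12 libraries, among genes with a mean of at least 20. For INSM1 they were PARP2 (r = 0.991) and FANCI (r = 0.991), which had log2 fold changes of -1.18 and -2.30. For FOXA2 they were LIMD2 (r = 0.976) and TUBA4A (r = 0.975), for ONECUT2 TAOK1 (r = 0.966) and DPP8 (r = 0.961), and for HNF4A SLC30A4 (r = 0.940) and CXXC5 (r = 0.932). SOX4 was most like GIPC1 (r = 0.928) and FAM89B (r = 0.917), and SOX11 most like NFS1 (r = 0.928) and FAM155B (r = 0.862). The points share libraries, depth and group, and these values are descriptions chosen as the highest of many genes.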

How the data were processed

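CEL-seq2 profiles of 6 senescent and 6 non-senescent EndoC-βH3 samples were used. By the study's methods and processing notes the authors trimmed reads with Cutadapt, counted them with Salmon 0.13.1 on GRCh38 and used DESeq2 with batch correction. The transcript annotation and the use of molecular identifiers are not given in the sources used here, so floors hold for counting error alone. The unit of the deposited values is a signal, reads divided by 1 size factor per library. All 196021 non-zero values (100%) were whole reads within a tolerance of 0.01. The deposited log2 fold changes and their errors, the test statistic (a score) and the p-values are the authors' comparison and were not used.

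limma 3.58.1 in R 4.3.3 was run with the trend on log2(value + 1) with batch and group for the 13847 genes with a mean of at least 5, and with a batch by group interaction, each adjusted over all tested genes. Fold changes on this scale understate the change of low genes. edgeR 4.0.16 and DESeq2 1.42.0 on the recovered reads, other pseudocounts, filters, scalings, weights, a replicate block, single batches and left-out libraries were alternatives. The difference in level between batches was added after the data were seen. The procedure was tested on simulated data. The 9 members, the lists and the rules were chosen with earlier results of these data known. Named genes were the members, the 2 genes most like each tested member, and of each list the paralogs and up to 4 called genes per direction by size. Of the marker lists names and sums are given, with log2 fold changes, adjusted p values or read numbers for some of the genes. PDX1, NEUROD1, NKX6-1, IRX1, IRX2, PROX1, HDAC2, HADH, CLDN1, SERPINA1, APOA1, APOA2, APOC3 and APOM were named after their values were seen. Totals ranged from 4672924 to 17106776 reads, and 3 reads are 0.175 to 0.642 ppm of a library's reads.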

Additional observations from a re-analysis of the deposited data

Results flagged for a closer look

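The response of ONECUT2 to senescence differed between the batches by 0.79 on the log2 scale (limma interaction adjusted p = 0.0323), lower in both senescent libraries of batch A and higher in all 4 of batch B. 3 of 34 sets of member values held a library apart from the rest by Dixon's test. Chance alone sets apart about 1 in 20 independent sets drawn from 1 population. The sets here overlap and some pool both batches, so that rate cannot be set against these 3. NEUROG3 in non-senescent A1 (6.67 normalised reads, 12 reads) stood above the other 5 non-senescent libraries, 4 of them in batch B with 0 reads. SOX11 in non-senescent B1 (372) stood above the other 3 non-senescent libraries of batch B, at 267 to 270.3. FOXA2 in senescent B1 (3190) stood below the other 3 senescent libraries of batch B, at 3551 to 3569.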

How the results depend on the processing

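The number of called members was 1 in 25 of 28 alternatives and for every left-out library (1 to 1). It was 0 without the batch term, 2 in batch B alone (INSM1 and ONECUT2) and 4 with no fold limit. Without the batch term INSM1 kept its value of -0.63 with an adjusted p of 0.452, by construction, since the batches then add to the spread. Members whose response differed between batches numbered 1 in the report's fit, 0 without the trend, 2 with the filter at 20, TMM, upper quartile scaling or edgeR and 3 with array weights or DESeq2, and 0 to 2 when single libraries were left out. The cause was not tested. Members called between the batches numbered 4 to 6 over 23 alternatives. Replicate names did not pair the samples (correlations of same-named deviations -0.051 to 0.016). With a replicate block 1 member was called, 1 differed between batches, and the block moved the calls over all genes from 3237 to 3211, against 3238 with edgeR and 3223 with DESeq2 on the recovered reads. Directions turned for SOX4 in batch B alone (-0.024), for ONECUT2 (-0.11), HES1 (-0.15), CLDN1 (-0.18), ONECUT3 (-0.37) and HNF4G (0.093) in batch A alone, and for ONECUT3 (0.033 in the report's fit) with the same total (-0.070) or array weights (-0.14) and between -0.072 and 0.23 with single libraries left out. The difference between batches of INSM1 was -0.046 with TMM, -0.031 with upper quartile scaling, -0.053 with edgeR and -0.071 to 0.073 with single libraries left out, and that of SOX11 -0.055 to 0.20. Depth limits NEUROG3, SOX9 and GATA6, and 2 libraries per group limit batch A.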
